A study of Homo sapiens with 12 samples.

Results

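The mitosis and spindle genes are a list of 50 genes of G2 and M phase, the kinetochore and the spindle, picked by name. The rule uses no measured value, but the list was chosen with earlier results of these data known. All 50 were found in the deposited table of 63677 Ensembl genes by gene symbol, and all 50 passed the filter on low counts that left 18674 genes for testing. RNA-seq was performed on 12 libraries from the mantle cell lymphoma (MCL) cell lines JEKO1, JVM2 and MAVER1, with 1 library per line and treatment after 48 h. The treatments were a control, ironomycin, ibrutinib and both drugs together. Ironomycin is a small molecule made from salinomycin that traps iron in lysosomes, and ibrutinib blocks BTK, a kinase downstream of the B-cell receptor. JEKO1 received 50 nM ironomycin and 0.5 μM ibrutinib. JVM2 received 250 nM and 1.5 μM, and MAVER1 received 250 nM and 6.25 μM of the same drugs. The ibrutinib dose differed in every line, and the ironomycin dose of JEKO1 differed from that of the other lines, so there dose and cell line cannot be told apart. JVM2 and MAVER1 had the same ironomycin dose. The lines also differed in culture conditions, since JVM2 was grown in medium with less serum and at a lower density.

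Entry into mitosis is driven by CDK1 bound to cyclin B or cyclin A, which CDC25 phosphatases switch on. Polo-like and Aurora kinases then build the spindle, kinetochores attach chromosomes to its microtubules, and the spindle checkpoint holds the cell until all chromosomes are attached. CDC20 next turns on the anaphase-promoting complex, which marks cyclin B and securin for degradation so that sister chromatids part. Most of these genes are transcribed in late S, G2 and M phase under the MuvB core complex together with B-MYB and FOXM1, and are held off in resting cells by the DREAM complex. The complexes bind a short promoter motif, the CHR element, often close to CCAAT boxes bound by NF-Y. Transcripts of this group are widely used as a readout of proliferation, and in MCL a high proliferation signature marks aggressive disease.

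The promoters of several members are shown because they carry the motifs through which this group is known to be controlled, and because members with and without a match are both among the genes that fell. Each line holds the 120 bases before the RefSeq start on GRCh38.p14, 5′ to 3′ on the strand of the gene, with CHR letters (TTTGAA or TTCGAA, either strand) and CCAAT boxes (CCAAT, either strand) in capitals. PLK1 (chr16:23678769-23678888, plus strand), CCNB2 (chr15:59105026-59105145, plus strand), CDC20 (chr1:43358861-43358980, plus strand) and CDCA8 (chr1:37692396-37692515, plus strand) fell with both drugs and hold CHR letters. MKI67 (chr10:128126424-128126543, minus strand) holds CHR letters too and was not called with both drugs. CCNB1 (chr5:69167030-69167149, plus strand) was among the members that fell most and has no such letters in its promoter window, which says only that these letters are not there.
PLK1: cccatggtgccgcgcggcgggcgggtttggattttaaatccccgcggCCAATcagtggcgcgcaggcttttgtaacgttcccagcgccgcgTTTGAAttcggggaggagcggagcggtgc
CCNB2: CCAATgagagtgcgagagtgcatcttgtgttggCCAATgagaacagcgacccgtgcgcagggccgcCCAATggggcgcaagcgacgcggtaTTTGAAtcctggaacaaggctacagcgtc
CDC20: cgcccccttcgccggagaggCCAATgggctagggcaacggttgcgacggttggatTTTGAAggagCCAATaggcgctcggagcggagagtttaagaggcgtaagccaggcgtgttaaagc
CDCA8: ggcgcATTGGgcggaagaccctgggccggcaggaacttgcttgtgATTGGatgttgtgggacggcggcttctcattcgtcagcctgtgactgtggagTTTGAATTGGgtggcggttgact
MKI67: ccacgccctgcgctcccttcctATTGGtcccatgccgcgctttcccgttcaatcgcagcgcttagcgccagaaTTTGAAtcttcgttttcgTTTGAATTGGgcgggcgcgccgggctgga
CCNB1: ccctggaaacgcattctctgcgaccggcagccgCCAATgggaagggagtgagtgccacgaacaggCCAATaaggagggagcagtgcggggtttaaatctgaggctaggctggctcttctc
In PLK1 and in CCNB2 the CHR match began at position -29 from the start, in CDCA8 at -23, and in MKI67 at -47 and at -29. In CDCA8 and MKI67 the CHR match runs into a CCAAT box, with which it shares letters.

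RefSeq promoters of 250 bases before to 50 bases after the start were at hand for 42 of the 50 members, 52 promoters in all, and 8 members (AURKA, BIRC5, BUB3, CENPM, FOXM1, TPX2, TTK and UBE2C) had no entry. CHR letters were found in 34 of the 52 promoters (65.4%), against 16.4% of all 35116 promoters in the same table. CCAAT boxes were found in 40 of the 52 (76.9%), against 34.6% of all promoters. A further motif searched was the E2F site in 4 spellings (TTTCGCGC, TTTGGCGC, TTTCCCGC and TTTGCCGC, either strand). It was found in 4 member promoters (7.69%), against 3.31% of all. Within the last 60 bases before the start, a window chosen after the positions had been seen, 17 of 42 member genes (40.5%) and 3.63% of all genes with a promoter entry had CHR letters. With both drugs the median log2 fold change was -0.46 over promoters with CHR letters (n = 34) and -0.50 over those without (n = 18). For CCAAT boxes the medians were -0.53 (n = 40) and -0.40 (n = 12). These are descriptions, and a gene with several promoters counts more than once.

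Library totals ran from 35448523 to 38630809 reads, and a member had between 281 and 49347 reads in a library. The B-cell markers CD79A, CD79B, MS4A1 and PAX5 were expressed in all 12 libraries. CCND1, the cyclin gene that defines MCL, ran from 216 to 322 CPM (counts-per-million, TMM-scaled) in JVM2, from 2182 to 3513 CPM in JEKO1 and from 4252 to 4828 CPM in MAVER1. SOX11, a second MCL marker, had 0 reads in all 4 JVM2 libraries. Of the markers of other blood cells, CD3D, CD3E and CD3G (T cells) summed to at most 2.60 RPM (reads-per-million of the library total) in a control library and 0.621 with both drugs, and CD14, LYZ and CSF1R (monocytes) to at most 3.68 and 4.93. With both drugs against control the B-cell marker CD79A fell, 1 of 3 MCL markers rose (SOX11), and of the near-absent markers CD3E, CD3G and LYZ fell, at 1 to 84, 0 to 61 and 4 to 35 reads per library. The 13 mitochondrial transcripts held 1.64 to 1.81% of reads in the control libraries, but 0.454% in JEKO1 with both drugs, 1.80% in JVM2 and 1.08% in MAVER1. Their part in the changes below was not tested. In bulk RNA, fewer cells in mitosis and less mRNA per mitotic cell cannot be told apart.

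In the control libraries the members differed widely in level. Levels were put on a scale of CPM per kilobase of exon, so that genes can be compared roughly. The length covers all annotated exons of a gene, and the annotation behind the counts is unknown, so ranks between genes are approximate. On this scale MYBL2 had the highest control level at 346 ± 127 (SD, n = 3 lines). CDC20 followed at 120 ± 33.2, UBE2C at 113 ± 32.8, CCNB1 at 83.1 ± 14.0 and TOP2A at 81.5 ± 17.5. MYBL2, which encodes B-MYB, had 422 CPM per kilobase in JEKO1, 200 in JVM2 and 417 in MAVER1, above every other member in each line. CDC20 and UBE2C, and likewise CCNB1 and TOP2A, lay within each other's spread. At the low end, CDC25C had 4.76 ± 0.284, CENPK 5.09 ± 0.166 and TTK 5.40 ± 2.57. Over the 12 libraries, 37 of the 50 members differed in level between lines (edgeR quasi-likelihood test, adjusted p under 0.05), while 90.0% of all genes tested did. BUB1 showed one of the wider gaps on the per-kilobase scale, with 18.9 in JEKO1, 27.8 in JVM2 and 46.4 in MAVER1, and TTK went the other way for MAVER1, with 4.54, 8.29 and 3.37. KIF20A, at 23.6, 24.5 and 25.0, was nearly level across the 3 lines.

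With both drugs, most of the mitosis and spindle transcripts fell. Of the 50 members, 40 fell against control and none rose (edgeR quasi-likelihood test with Benjamini-Hochberg adjustment over all genes, adjusted p under 0.05), whereas 14.0% of all genes tested fell. The median log2 fold change was -0.50 for the members and 0.05 for all genes, and 49 members had a negative value. The range ran from -1.15 for PLK1 to 0.15 for CDC25B. Most changes were moderate, since only PLK1 and CCNB1 changed by at least 1 on the log2 scale. The count depended on the lines in the fit: it was 43 without JVM2, but 0 without JEKO1 and 0 without MAVER1. Without JEKO1 and without MAVER1 the members' medians were -0.42 and -0.45. The calls over all genes, in either direction, moved with the count. They were 5268 of 18674 with all lines and 6103 of 17985 without JVM2. Without JEKO1 they were 37 of 17875, and without MAVER1 22 of 18851. Why the counts changed was not tested. Every line moved the same way, since the median log2 ratio to the line's own control was -0.66 for JEKO1, -0.30 for JVM2 and -0.52 for MAVER1.

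**Figure D1:**
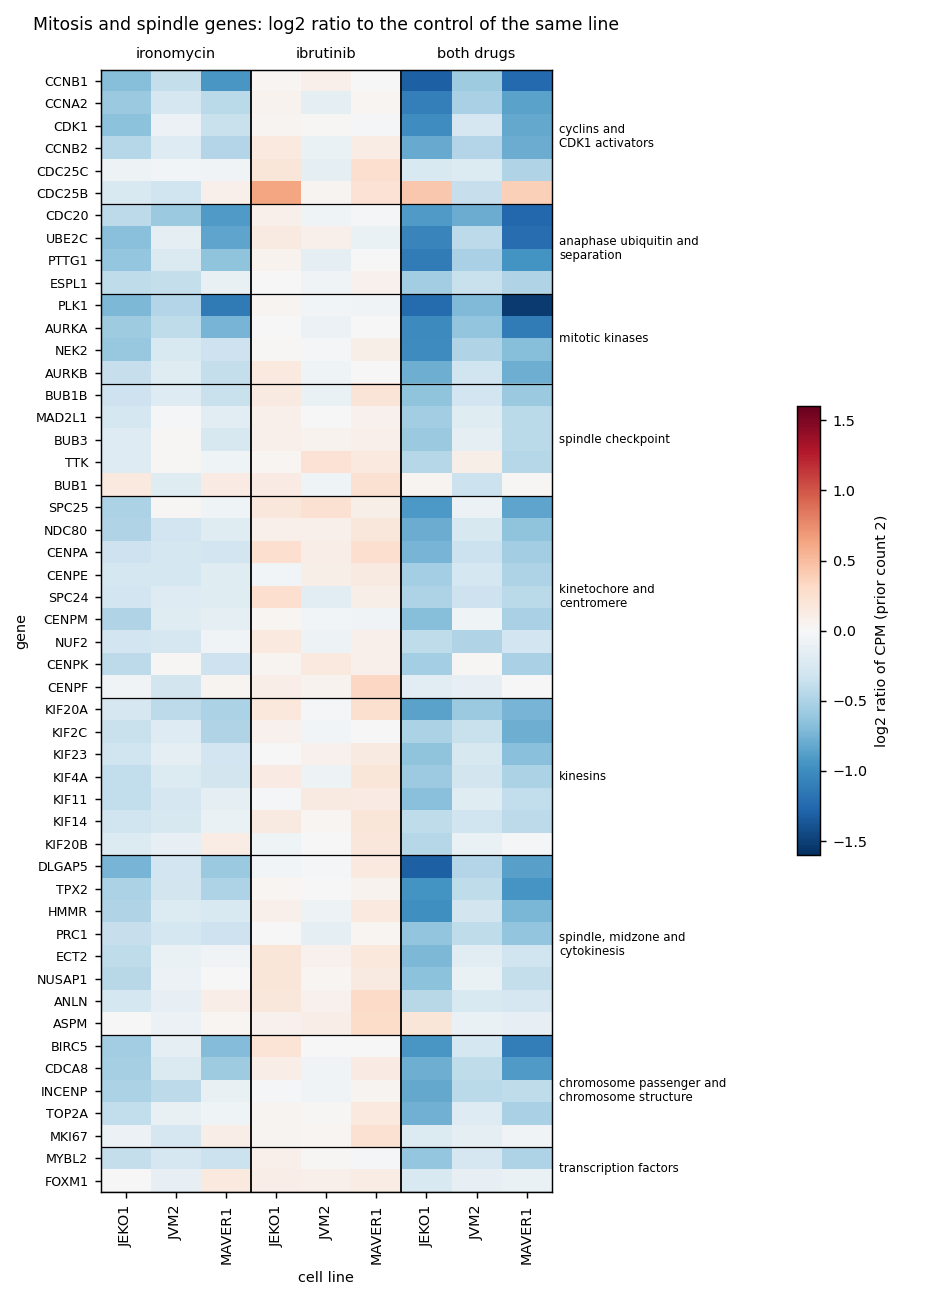
Log2 ratio of CPM (prior count 2) to the control of the same line for the 50 genes (rows, grouped by role) in each line with ironomycin, ibrutinib or both drugs (columns). Blue is lower and red is higher than control. With both drugs 47 genes were lower in JEKO1, 48 in JVM2 and 48 in MAVER1, with the palest blue in JVM2, while the ibrutinib columns hold little color apart from CDC25B in JEKO1.

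The cyclins and CDK1 showed some of the deeper falls. CCNB1, which encodes cyclin B1, had 247, 175 and 215 CPM in the controls of JEKO1, JVM2 and MAVER1, and 99.9, 119 and 90.6 CPM with both drugs. All 3 treated libraries lay below all 3 controls. The log2 fold change of CCNB1 was -1.03 (standard error 0.14, adjusted p = 0.00286 from edgeR). CDK1, the kinase it activates, went from 110, 98.7 and 96.7 CPM to 55.4, 81.8 and 54.9 CPM, again without overlap. CDK1 fell by 0.69 (edgeR adjusted p = 0.00684, standard error 0.14), and JVM2 had the smallest difference. CCNA2 and CCNB2, the other cyclin genes, fell by 0.82 and by 0.68. The 2 phosphatase genes that activate CDK1 were not called. CDC25C had a log2 fold change of -0.31 (edgeR adjusted p = 0.084), and CDC25B, at 0.15 (edgeR adjusted p = 0.502), was the only member with a positive value.

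All 4 mitotic kinase genes fell, by 0.62 to 1.15 on the log2 scale. PLK1, which encodes Polo-like kinase 1 and takes part in mitotic entry, spindle assembly and cytokinesis, had 346, 259 and 260 CPM in the controls of JEKO1, JVM2 and MAVER1. With both drugs PLK1 had 147, 159 and 90.1 CPM, lowest in MAVER1. Its log2 fold change, -1.15 (standard error 0.15, edgeR adjusted p = 0.00253), was the lowest of the 50. AURKA, the Aurora kinase of the centrosome and spindle pole, went from 110, 91.9 and 107 CPM to 54.6, 59.3 and 49.5 CPM. The values of AURKA with both drugs were close to each other in the 3 lines and well below the controls (log2 fold change -0.92, standard error 0.11, edgeR adjusted p = 0.00206). AURKB, the Aurora kinase of the chromosome passenger complex, and NEK2, a centrosome kinase, changed by -0.62 and -0.73.

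The 4 genes of anaphase and its ubiquitin ligase also all fell. CDC20, the activator of the anaphase-promoting complex, had 167, 279 and 289 CPM in the controls and 88.9, 162 and 121 CPM with both drugs. Because JEKO1 started low, the groups of CDC20 were close without overlapping, and the change within every line was large (log2 fold change -0.99, standard error 0.11, edgeR adjusted p = 0.00174). UBE2C, the ubiquitin-conjugating enzyme that works with that complex, had 187, 147 and 102 CPM in the controls and 89.6, 110 and 44.0 CPM with both drugs. UBE2C overlapped between groups because of its line differences, and fell by 0.90 in the fit that takes cell line into account (standard error 0.15, edgeR adjusted p = 0.00385). PTTG1, which encodes securin, fell by 0.86, and ESPL1, which encodes separase, fell by 0.47.

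Of the spindle checkpoint genes 3 of 5 fell, with a median of -0.39. BUB1B, which encodes the checkpoint kinase-like protein BUBR1, had 142, 108 and 114 CPM in the controls and 90.8, 87.2 and 75.3 CPM with both drugs, without overlap (log2 fold change -0.51, standard error 0.11, edgeR adjusted p = 0.00885). BUB3, its binding partner and the member of the group with the most reads, had 335, 202 and 247 CPM and then 222, 183 and 183 CPM. The values of BUB3 overlapped between groups, and it fell by 0.39 (standard error 0.10, edgeR adjusted p = 0.0175). MAD2L1, another inhibitor of CDC20, fell by 0.39. The checkpoint kinases BUB1 and TTK were not called, with log2 fold changes of -0.10 and -0.26.

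Kinetochore and centromere genes fell in 7 of 9 cases, with a median of -0.42. CENPA, the histone H3 variant of centromeres, had 51.6, 36.1 and 54.1 CPM in the controls and 30.8, 28.3 and 36.8 CPM with both drugs. The highest treated library of CENPA, that of MAVER1, lay just above the JVM2 control. It fell by 0.55 (standard error 0.10, edgeR adjusted p = 0.00517). The NDC80 complex, which binds microtubules, fell in full: NDC80, NUF2, SPC24 and SPC25 had log2 fold changes between -0.61 and -0.39. CENPF, a large kinetochore and nuclear matrix protein with the most reads in this group, was not called. CENPF had 167, 220.3 and 220.5 CPM in the controls and 148, 201 and 219 CPM with both drugs (log2 fold change -0.11, standard error 0.085, edgeR adjusted p = 0.375), and its value was 0.017 when library totals replaced TMM scaling. CENPK missed the threshold narrowly (edgeR adjusted p = 0.0507).

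Of the kinesins, motor proteins that move chromosomes and spindle parts, 6 of 7 fell, with a median of -0.46. KIF20A, the kinesin of the midzone and cleavage furrow, had 93.2, 96.8 and 98.9 CPM in the controls and 51.3, 64.3 and 58.8 CPM with both drugs. The 3 lines were alike for KIF20A before and after treatment (log2 fold change -0.73, standard error 0.10, edgeR adjusted p = 0.00321). KIF11, which pushes the spindle poles apart, had 203, 149 and 161 CPM in the controls and 128, 131 and 122 CPM with both drugs (log2 fold change -0.42, standard error 0.094, edgeR adjusted p = 0.0103). Both kinesins showed no overlap between the groups. KIF20B was the kinesin not called, at -0.20.

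Among spindle, midzone and cytokinesis genes, 7 of 8 fell, with a median of -0.48. TPX2, the Aurora A activator that nucleates spindle microtubules, had 288, 257 and 267 CPM in the controls and 148, 194 and 139 CPM with both drugs. TPX2 was nearly equal in the untreated lines and clearly lower in all 3 afterwards (log2 fold change -0.76, standard error 0.12, edgeR adjusted p = 0.00341). DLGAP5, a spindle assembly protein, had 45.9, 105 and 53.0 CPM in the controls and 18.6, 75.6 and 29.1 CPM with both drugs. High JVM2 levels made the groups of DLGAP5 overlap, although it fell in each line (log2 fold change -0.87, standard error 0.14, edgeR adjusted p = 0.00383). ASPM, a spindle pole protein, was the exception, with a log2 fold change of -0.01 and with 154 CPM in the JEKO1 control against 176 CPM with both drugs.

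In the group of chromosome passenger and chromosome structure genes, 4 of 5 fell. BIRC5, which encodes survivin, had 56.4, 42.6 and 65.9 CPM in the controls and 29.4, 34.9 and 30.6 CPM with both drugs, without overlap (log2 fold change -0.77, standard error 0.16, edgeR adjusted p = 0.00755). CDCA8, which encodes borealin of the same complex, had 152, 153 and 181 CPM and then 87.8, 115 and 96.5 CPM (log2 fold change -0.69, standard error 0.12, edgeR adjusted p = 0.00435). INCENP, the scaffold of that complex, fell by 0.55. TOP2A, the topoisomerase that disentangles chromosomes, had 436, 485 and 652 CPM in the controls and 257, 422 and 456 CPM with both drugs. The groups of TOP2A overlapped, and it fell by 0.49 (standard error 0.12, edgeR adjusted p = 0.0128).

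MKI67, which encodes the proliferation marker Ki-67, stood apart from most of the group. It had 604, 689 and 510 CPM in the controls of JEKO1, JVM2 and MAVER1, and 520, 620 and 491 CPM with both drugs. The groups of MKI67 overlapped, and each line was only slightly lower than its own control (log2 fold change -0.14, standard error 0.089, edgeR adjusted p = 0.251). The transcription factor genes were split. MYBL2 had 1173, 554 and 1159 CPM in the controls and 767, 459.7 and 825 CPM with both drugs, and fell by 0.46 (standard error 0.094, edgeR adjusted p = 0.00734). FOXM1 had 157, 146 and 134 CPM and then 132, 134 and 124 CPM, a narrow separation that did not pass the test (log2 fold change -0.16, standard error 0.081, edgeR adjusted p = 0.157).

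**Figure D2:**
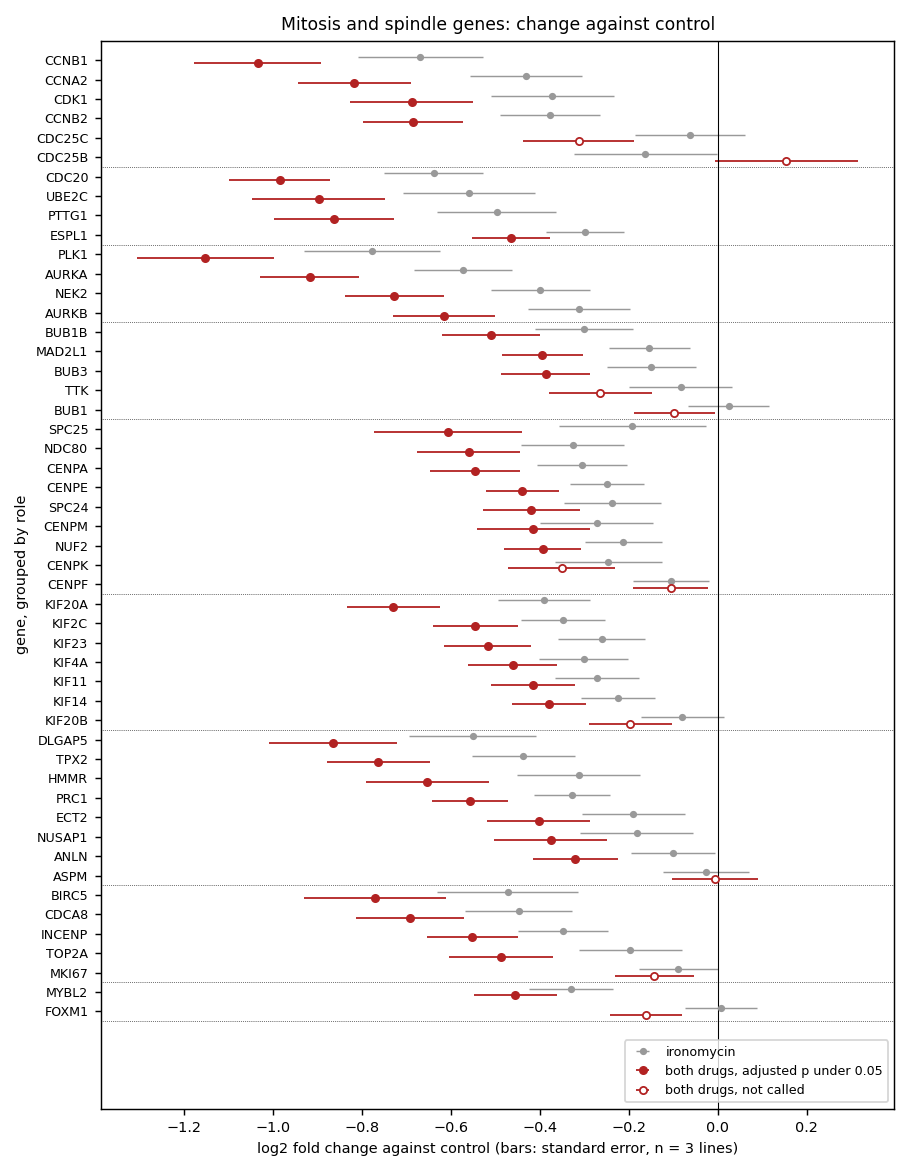
Log2 fold change against control for the 50 genes with ironomycin (grey) and with both drugs (red, filled where the adjusted p was under 0.05). Bars are standard errors from the edgeR fit of all 12 libraries (n = 3 lines). The red points lie to the left of 0 for 49 genes and the grey points for 48, and the open red points include MKI67, FOXM1, ASPM, CENPF and CDC25B.

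With ironomycin alone the direction was similar and the changes were smaller. The median log2 fold change of the members was -0.30, with 48 of 50 below 0, while the median of all genes was 0.03. By line, the median log2 ratio to the line's own control was -0.39 for JEKO1, -0.21 for JVM2 and -0.25 for MAVER1. One member, CDC20, fell past the threshold (log2 fold change -0.64, standard error 0.11, edgeR adjusted p = 0.0394), where 0.171% of all genes fell. CDC20 had 167, 279 and 289 CPM in the controls and 125, 186 and 154 CPM with ironomycin. At an unadjusted p under 0.05, 31 members were lower, against 11.2% of all genes. The 5 members with the lowest p were CDC20, AURKA, PLK1, CCNB1 and DLGAP5. PLK1 had 210, 187 and 118 CPM with ironomycin (log2 fold change -0.78, edgeR adjusted p = 0.0534) and AURKA had 74.4, 69.3 and 64.2 CPM (-0.57, edgeR adjusted p = 0.0522). CCNB1 had 154, 135 and 113 CPM (-0.67, edgeR adjusted p = 0.060) and DLGAP5 had 27.5, 84.7 and 35.04 CPM (-0.55, edgeR adjusted p = 0.0801). For PLK1, AURKA and CCNB1 every ironomycin library lay below every control. The number called was sensitive to the tool and to the lines: DESeq2 called 30 members, and edgeR called 20 without JVM2 but 0 without JEKO1 and 0 without MAVER1. The calls over all genes, in either direction, were 109 of 18674 in the fit with all lines, 2362 with DESeq2 and 1636 of 17985 without JVM2, so they rose along with the members.

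Ibrutinib alone gave no such decline. Of the 50 members 41 had a small positive value and the median was 0.07, with none called by edgeR and none by DESeq2. None had an unadjusted p under 0.05 either, against 3.64% of all genes tested. Across all genes 0 were called by edgeR with ibrutinib, at 0%, and 26 by DESeq2. The median log2 ratio to control was 0.08 for JEKO1, 0.01 for JVM2 and 0.12 for MAVER1. PLK1 had 356, 252 and 250 CPM with ibrutinib and CCNB1 had 252, 185 and 215 CPM, both close to the control of the same line.

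Adding ironomycin to ibrutinib, in contrast, lowered 45 of the 50 members (edgeR, adjusted p under 0.05), where 11.5% of all genes were lower, with a median of -0.55 and all 50 below 0. Without JEKO1 or without MAVER1 the count was 0, and without JVM2 it was 46, while the calls over all genes in either direction were 1, 6 and 5192, against 4359 with all lines. The members not called were ASPM, BUB1, CDC25B, KIF20B and MKI67. Adding ibrutinib to ironomycin gave values in the same direction that did not reach the threshold. The median was -0.23, 48 members were below 0 and 23 were lower at an unadjusted p under 0.05, against 4.98% of all genes, but neither edgeR nor DESeq2 called a member. Over all genes this comparison had 0% called by edgeR and 163 genes by DESeq2. The lowest p among members was that of KIF20A, which had 77.7, 72.7 and 69.7 CPM with ironomycin and 51.3, 64.3 and 58.8 CPM with both drugs (log2 fold change -0.34, edgeR adjusted p = 0.431).

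The 2 drugs together were also compared with the sum of their single changes. For 49 of the 50 members the combined change was below that sum, with a median departure of -0.32 on the log2 scale, against 0.01 over all genes. No member was called (lowest adjusted p 0.9999 by edgeR, and none by DESeq2), nor was any other gene (0%). At an unadjusted p under 0.05, 11 members departed downward, against 0.632% of all genes. KIF20A and CENPA had the lowest p, with departures of -0.47 (unadjusted p = 0.00829, edgeR) and -0.46 (unadjusted p = 0.00855, edgeR). CENPA had 62.4, 38.8 and 65.0 CPM with ibrutinib, above its controls in every line, and 30.8, 28.3 and 36.8 CPM with both drugs. The departures were not separated from the spread between lines.

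The order of the 4 libraries was much the same in JEKO1 and MAVER1. The library with both drugs was the lowest of 4 for 47 members in JEKO1, 39 in JVM2 and 48 in MAVER1. For single lines the share over all genes was not counted. In all 3 lines at once the library with both drugs was lowest for 36 members, against 11.2% of all genes tested. Both drugs lay below ironomycin, and ironomycin below the other 2 libraries, in every line for 32 members, against 6.30% of all genes. Set across lines, the 3 libraries with both drugs lay below all 3 controls for 24 members, against 4.01% of all genes, and the 3 ironomycin libraries for 13 members, against 1.82%.

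**Figure D3:**
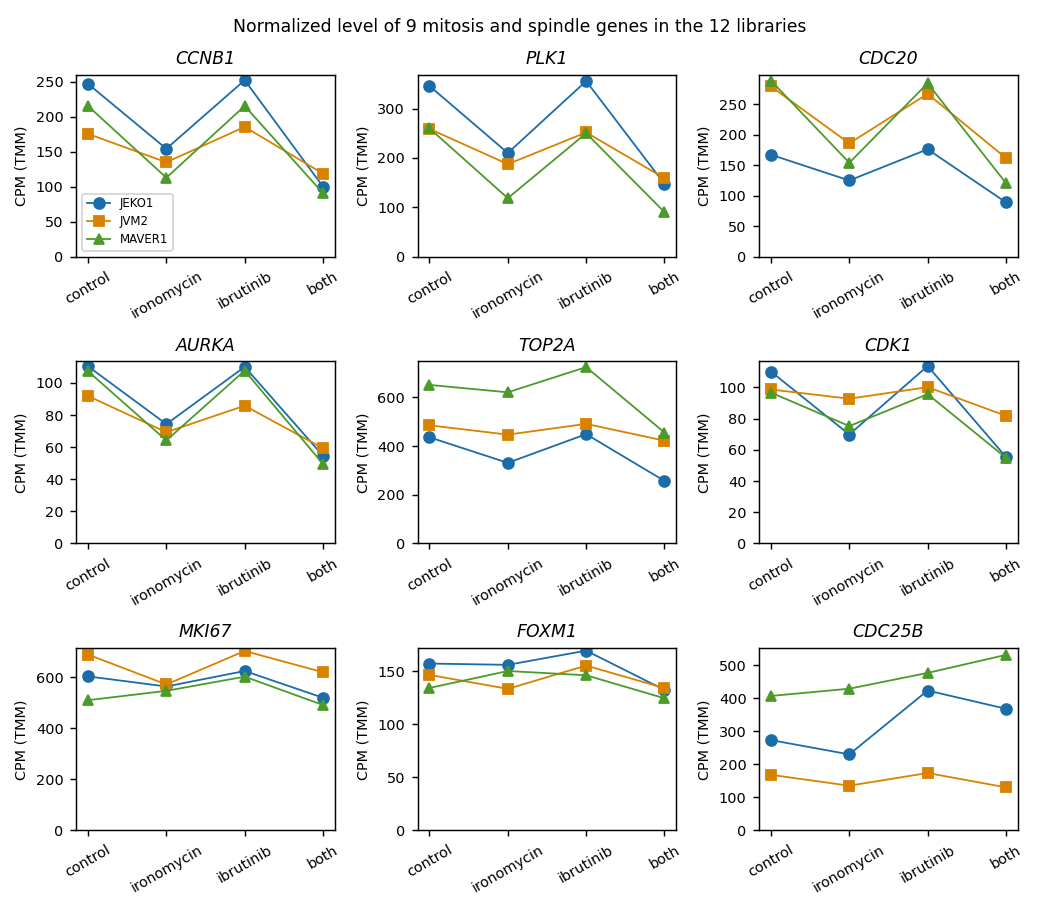
CPM after TMM scaling for 9 genes in each of the 12 libraries, with 1 line per cell line and the 4 treatments along the horizontal axis. CCNB1, PLK1, CDC20 and AURKA are lower with ironomycin than in the control of each line and lowest with both drugs, MKI67 and FOXM1 differ little, and CDC25B has 273 CPM in the JEKO1 control and 424 CPM with ibrutinib.

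The ironomycin effect was then estimated within each line, over the libraries with and without ibrutinib (2 against 2 libraries per line in 1 edgeR fit). The 2 libraries are not replicates of 1 treatment, and the fit assumes that the 2 drugs add on the log scale. The combined change lay below that sum for 49 members, with none called. Median log2 ratios for ironomycin were -0.39, -0.21 and -0.25 without ibrutinib in JEKO1, JVM2 and MAVER1, and -0.77, -0.31 and -0.69 with it. In JEKO1, at the lower dose, 43 members fell, against 18.2% of all genes, with a median of -0.58. In MAVER1 35 members fell, against 17.3% of all genes, with a median of -0.48. JVM2 had 5 members called, against 2.14% of all genes, and a median of -0.25, although all 50 values were below 0. The 5 were AURKA, CDC20, CDC25B, INCENP and PLK1. All of these but CDC25B fell in each of the 3 lines. At the other end, ASPM, BUB1, CDC25C, CENPF, FOXM1, MKI67 and TTK were called in no line. The JVM2 count was 17 without JEKO1 in the fit, where the calls over all genes in either direction went from 947 of 18674 to 2327 of 17875, and 0 without the filter on low counts (332 of 35583).

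The lines were then compared with each other. The test of the difference in the ironomycin effect called 2 of 50, against 13.3% of all genes. PLK1 had a log2 change of -0.997 for JEKO1, -0.57 for JVM2 and -1.30 for MAVER1, each with a standard error of 0.13, and differed between lines (edgeR adjusted p = 0.0481). CDC25B was lower with ironomycin in JEKO1 (-0.23, standard error 0.078) and JVM2 (-0.37, 0.079) but not in MAVER1 (0.12, 0.078), and differed as well (edgeR adjusted p = 0.0347). Both calls were lost without the filter on low counts (edgeR adjusted p = 0.113 for PLK1 and 0.0728 for CDC25B), with an ibrutinib term common to the lines (0.0536 and 0.320), without JVM2 (0.482 and 0.277) and without MAVER1 (0.180 and 0.590), and that of PLK1 also with DESeq2 size factors (0.0532). Without JEKO1, between the lines with the same ironomycin dose, both were called (0.00245 and 0.00522), as were 11 members and 3173 of 17875 genes. The next genes by p did not pass. UBE2C had log2 changes of -0.93, -0.33 and -0.98 in the order JEKO1, JVM2, MAVER1 (edgeR adjusted p = 0.0526), CDK1 had -0.85, -0.19 and -0.58 (edgeR adjusted p = 0.0547), and BIRC5 had -0.85, -0.22 and -0.90 (edgeR adjusted p = 0.0577). In all 3 of these genes JVM2 had the smallest change.

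**Figure D4:**
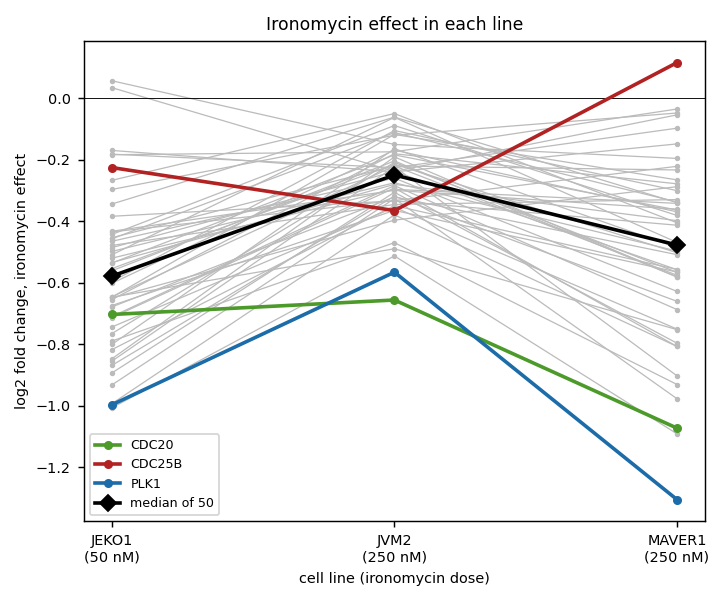
Log2 fold change of the ironomycin effect within each cell line (doses under the names), over the libraries with and without ibrutinib. Each of the 50 genes has 1 thin line, with the median as diamonds. The median was -0.58 for JEKO1, -0.25 for JVM2 and -0.48 for MAVER1, PLK1 changed most in MAVER1, and CDC25B crossed 0 there. For ironomycin alone against control, which is not drawn, the medians were -0.39, -0.21 and -0.25.

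The values of CDC25B with ibrutinib also differed between lines. The ibrutinib dose differed in every line, so line and dose cannot be told apart. CDC25B was not called with ibrutinib against control. This phosphatase, which acts early in mitotic entry, had 273, 230, 424 and 368 CPM in JEKO1 in the order control, ironomycin, ibrutinib and both drugs. The order gave 168, 135, 174 and 130 CPM in JVM2 and 407, 429, 477 and 532 CPM in MAVER1. Ibrutinib thus went with higher CDC25B in JEKO1 and MAVER1, and hardly any difference in JVM2. The difference of the ibrutinib effect between lines was called for CDC25B alone of the 50 members (edgeR adjusted p = 0.0448), against 0.948% of all genes. The CDC25B call was lost with DESeq2 size factors (edgeR adjusted p = 0.0529), without the filter on low counts (0.108), with a common ironomycin term, without JEKO1 (0.316) and without JVM2 (0.735).

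The changes of the members also went with exon length, which is the summed length of all annotated exons of a gene, not that of a single transcript. Across the 50 members, the Spearman correlation of exon length with the log2 fold change was 0.57 with ironomycin and 0.58 with both drugs, so that longer members had smaller falls. These points share the same libraries and genes are not independent replicates. Over the 17957 tested genes with a length (96.2%), the correlation was 0.07 with ironomycin and 0.05 with both drugs. MKI67, CENPF and ASPM are the longest members and were not called. An offset for exon length in each library, added after this was seen, left 39 of 50 members lower with both drugs. Over all genes 4848 of 17957 were then called in either direction. The offset was fitted over expressed genes at large, where the relation to length was weak. It therefore could not remove or test the relation among the members.

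**Figure D5:**
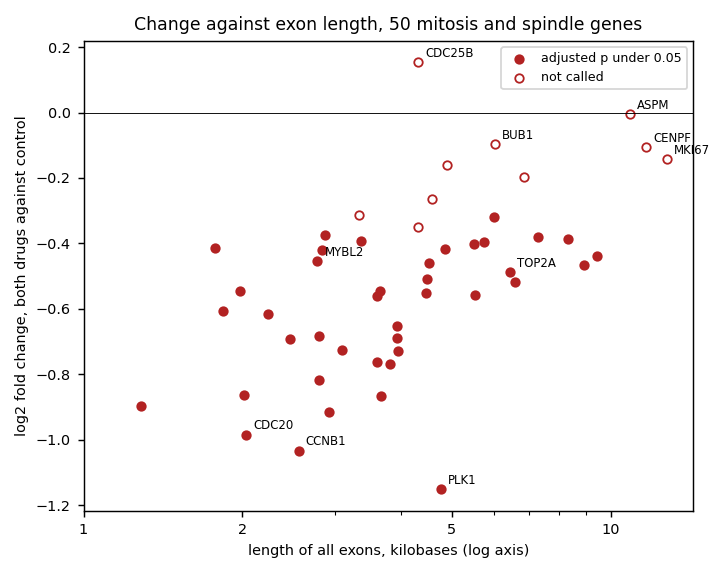
Log2 fold change with both drugs against control for the 50 genes (vertical axis) against the summed length of their exons in kilobases (log axis), with filled points where the adjusted p was under 0.05. MKI67, CENPF and ASPM lie at the right near 0, and CCNB1 and CDC20 lie at the left near -1.

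Other genes of the same pathways were read in the same fit with both drugs against control. Of 24 further kinetochore and centromere genes 10 fell (median -0.28), among them NSL1 (-0.50), CENPN (-0.48), ZWINT (-0.52) and MIS18A (-0.39). Of 19 condensin and cohesin genes, which compact and hold chromatids, 8 fell (median -0.24), among them the condensin subunits NCAPH (-0.66) and NCAPG (-0.59) and the cohesin protector SGO2 (-0.51). Of 22 genes of the anaphase-promoting complex and its checkpoint 10 fell (median -0.23), with UBE2S, which extends the ubiquitin chains, at -0.92. Of 26 further spindle and kinesin genes 17 fell and 1 rose (median -0.38), with KNSTRN at -0.73, TUBG1 at -0.63 and SPAG5 at -0.57. The one that rose was NUMA1, a spindle pole protein that is nuclear in interphase, at 0.49. The share of all genes that fell in this comparison, 14.0%, is the background for each of these counts.

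Regulators of these genes were read in the same fit. Of 21 MuvB, DREAM and RB-E2F genes, 6 were called, of which 4 fell and 2 rose (median -0.11). That share was close to the share over all genes, of which 5268 of 18674 were called in either direction. TFDP1, the E2F partner, fell by 0.78, E2F4 fell by 0.35, NFYC, a subunit of NF-Y, fell by 0.31, and E2F8 fell by 0.47. RBL2, which encodes the DREAM pocket protein p130, rose by 0.36, and DYRK1A, a kinase that promotes DREAM assembly, rose by 0.29. Of 14 CDK inhibitors and G2 brakes, 8 fell and 2 rose (median -0.36). CDKN1A, which encodes p21, rose with both drugs (log2 fold change 0.63, standard error 0.19, edgeR adjusted p = 0.0317), with ironomycin effects of 1.09 for JEKO1, 0.28 for JVM2 (not called) and 1.03 for MAVER1. CDKN1C, which encodes p57, rose by 0.98, with only 3 to 17 reads in the JVM2 libraries. CDKN2D, CDKN2A, CDKN3 and CDKN2C fell by 0.97, 0.73, 0.60 and 0.51. CDKN2A had 0 to 2 reads in the MAVER1 libraries, so its value rests on the other lines.

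Many DNA replication genes of G1/S fell too. Of 38 such genes 27 fell with both drugs and none rose, where 14.0% of all genes fell, with a median of -0.47 against -0.50 for the mitosis and spindle genes. MCM5, a subunit of the replicative helicase, fell by 0.55, ORC1 of the origin recognition complex by 0.50, RFC3 of the clamp loader by 0.56 and GINS1 by 0.63. By line, the ironomycin effect on these genes had a median of -0.59 for JEKO1, -0.25 for JVM2 and -0.33 for MAVER1. Of the 18 replication-dependent histone genes that could be matched 4 fell (H2AC20, H2BC13, H2BC11 and H1-2), and of the 13 mitochondrial transcripts 4 fell (MT-CO1, MT-CO2, MT-CO3 and MT-ND6), against the same 14.0%. Poly(A) selection limits what the histone values can show, since most histone mRNAs lack a tail.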

How the data were processed

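Cell lines were treated for 48 h and libraries of polyadenylated RNA were read from both ends. Per Ensembl gene, the table that the authors deposited holds read counts of 12 libraries, whole numbers with no normalization. The submitters' processing notes name STAR, DESeq2 and GRCh37. Their versions, the counting tool and the annotation release are not given in the sources used here. Strandedness of the counting is likewise not given, so overlapping genes may share reads. No column was left unused (0). Symbols were found for 52181 of the 63677 genes. Names, exon lengths and promoters came from GRCh38 annotation and RefSeq (GRCh38.p14), and no coordinates of the count table are given.

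Genes with low counts were removed with filterByExpr and the other 18674 were scaled by TMM. Tests were quasi-likelihood F-tests of edgeR 4.0.16 (R 4.3.3), with p-values adjusted by Benjamini-Hochberg. Treatment and cell line were the terms, over all 12 libraries, for comparisons of treatments. Line-specific drug effects used ironomycin and ibrutinib terms within each line, with 3 residual degrees of freedom. This assumes that the 2 drugs add on the log scale. A gene was called at an adjusted p under 0.05. The standard error is the size of the log2 fold change over the root of F. CPM use TMM scaling, and log2 ratios a prior count of 2. The line is the replicate (n = 3), and nothing states separate cultures, so p-values measure the spread between these libraries. Line was a block because libraries of a line come from the same cells: deviations from treatment means correlated at 0.926 to 0.976 within lines (18 pairs) and -0.705 to -0.127 between lines (48 pairs). No libraries were duplicates, since any pair differed in at least 23606 genes.

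The members and the lists were chosen with earlier results of these data known, so no set test was run and no p was adjusted over a list. Values in every library were given for the member of each role with the most reads and that with the lowest p with both drugs, the 5 lowest p with ironomycin, the 5 lowest p for the difference between lines, any member of opposite sign, and CCNB1, CDK1, MKI67, FOXM1, MYBL2 and TOP2A. Other members named with a single value, and NUMA1, DYRK1A, E2F8 and CDKN1C, were added after their values were seen. Genes of other lists were named when called, at most 4 a list, with CDKN1A. Alternatives were other scalings, filters, DESeq2 1.42.0, a fold minimum, no cell line term, fewer libraries, and leaving out each line. Python 3.11.15, pandas 2.3.3 and matplotlib 3.10.9 were used for tables and plots.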

Additional observations from a re-analysis of the deposited data

Results flagged for a closer look

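The ironomycin effect differed between cell lines for 2 of the 50 mitosis and spindle genes (edgeR quasi-likelihood test over 2 coefficients). That is a smaller share than the 13.3% of all genes tested. CDC25B had an adjusted p = 0.0347, with log2 changes of -0.23 for JEKO1, -0.37 for JVM2 and 0.12 for MAVER1. PLK1 had an adjusted p = 0.0481, with -0.997, -0.57 and -1.30. The ibrutinib effect differed between lines for CDC25B (edgeR adjusted p = 0.0448), where 0.948% of all genes were called. Its log2 ratios to control were 0.63 for JEKO1, 0.05 for JVM2 and 0.23 for MAVER1. None of these calls held without the filter on low counts or with the other drug's term common to the lines. The ibrutinib dose differed in every line, so line and dose cannot be told apart for ibrutinib. The ironomycin dose was the same in JVM2 and MAVER1, and between these lines, without JEKO1, PLK1 and CDC25B were both called (edgeR adjusted p = 0.00245 and 0.00522). In that comparison 11 members and 3173 of 17875 genes were called.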

How the results depend on the processing

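Leaving out a line gave 0 to 20 members called with ironomycin against control, 0 to 43 with both drugs against control, 0 to 46 with both drugs against ibrutinib, 0 to 11 for the difference of the ironomycin effect between lines, 0 to 1 for that of ibrutinib, and 5 to 17 for ironomycin in JVM2. In the same order, the calls over all genes were 1 to 1636, 22 to 6103 and 1 to 5192 for the treatments. They were 439 to 3173 and 10 to 231 for the differences between lines, and 788 to 2327 for JVM2. Without the replicate block (no cell line term) 0 members and 0 of all 18674 genes were called in the comparisons of treatments. The line differences then enter the residual. With only the 6 libraries compared the counts were 0 with ironomycin, 0 with both drugs against control and 9 with both drugs against ibrutinib. Over all genes those fits called 2 of 15969, 5 of 16136 and 306 of 16149. They have fewer residual degrees of freedom, and why the counts differ was not tested. A log2 fold change of at least 1 left 0 with ironomycin, 2 with both drugs against control, 2 against ibrutinib, 1 in JEKO1, 0 in JVM2 and 3 in MAVER1. Over all 18674 genes that minimum left 40, 1175, 870, 1489, 180 and 1273 in the same order. With ironomycin, DESeq2 called 30 (2362 of 18674 genes in all) and no filter on low counts 6 (497 of 35583). The difference between lines for ironomycin gave 1 with DESeq2 size factors, 4 with library totals, 0 without the filter, 5 with DESeq2 and 0 with a common ibrutinib term. Over all genes these settings called 2383, 2607, 1232, 2294 and 1488. The difference for ibrutinib gave 0 with DESeq2 size factors, 0 without the filter and 0 with a common ironomycin term, and 174, 53 and 2 over all genes. JVM2 had 3 with library totals, 0 without the filter and 2 with a common ibrutinib term, and 1011, 332 and 423 over all genes. For those counts the cause was not tested. Library totals in place of TMM moved the median of all genes with both drugs from 0.05 to 0.18. Among the members whose values are given by library, the sign turned for CENPF with both drugs (0.017 with library totals) and for FOXM1 with ironomycin (-0.0019 with DESeq2 size factors and with DESeq2, -0.011 without the filter, -0.0034 with 6 libraries, and -0.074 to 0.051 on leaving out a line, the lowest without MAVER1), both near 0 and not called. The other members that turned were BUB1 (0.027) and ASPM (0.12) with both drugs under library totals, ASPM also without the cell line term (0.035) and without JVM2 (0.0074) or MAVER1 (0.049), and, with ironomycin, CDC25C (0.005) and ASPM (0.04) under library totals and BUB1 without JEKO1 (-0.041) or MAVER1 (-0.026). The other counts stayed within 1.5 times, and medians within 1 SD of the line medians.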
